A study of Mus musculus with 5 samples.

Results

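The 62 genes described here are the ligands, binding proteins, receptors, antagonists, SMAD proteins and ID targets of bone morphogenetic protein (BMP), activin and transforming growth factor beta (TGF-beta) signalling that the expression table lists. They were found by matching gene symbols to a fixed pattern (Bmp, Gdf, Bmpr, Acvr, Tgfb, Tgfbr, Inhba, Inhbb, Nog, Chrd, Chrdl1, Grem1, Fst, Fstl3, Bambi, Id, Smad and Ltbp genes), with no measured value used, among 23857 genes in all. Expression had been measured by bulk RNA sequencing in stromal cells of the mouse oviduct (fallopian tube), sorted as positive for the yellow fluorescent protein YFP, in 5 libraries of 1 female mouse each. All 5 young adult mice carried Pdgfra-Cre, a recombinase under the promoter of a mesenchymal receptor gene, and R26Y, a YFP reporter that the recombinase switches on. Control mice 2 and 3 carried only these, and mice 1, 2 and 3 of the other genotype, Pdgfra-Cre;Esr1(fl/fl);R26Y, also carried floxed Esr1 alleles (Esr1 encodes estrogen receptor alpha). The comparison asks how the pathway's genes stand in stromal cells in which Esr1 was targeted. A reporter of this kind marks every cell in which the recombinase has been active, and its descendants.

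BMPs, activins and TGF-betas are secreted dimers that bind pairs of type I and type II receptor kinases. The activated receptors phosphorylate SMAD proteins, which move to the nucleus with SMAD4: SMAD1, SMAD5 and SMAD9 act mainly below BMP receptors, SMAD2 and SMAD3 below activin and TGF-beta receptors. Noggin, chordin and follistatin hold ligands away from receptors, and latent TGF-beta binding proteins keep TGF-beta stored in the matrix. ID genes are classical BMP targets. In the female tract these pathways are known for roles in the growth of the stroma and its matrix and in signalling between stroma and epithelium.

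Values are TPM, a transcript count that is scaled to gene length and to the same total in each library. SE is the standard error of a log2 fold change and adjusted p is after Benjamini-Hochberg. The labels were checked first. Esr1 was at 83.3 and 77.6 TPM in control mice 2 and 3 and at 28.9, 85.0 and 169.9 TPM in the mice labelled conditional knockout (cKO) 1, 2 and 3. Only cKO mouse 1 lay below both controls, and values per gene do not show whether a floxed exon is missing, so cKO means the label throughout. Read depth, estimated from the steps of low values, was 48.4% to 82.8% of control mouse 2 in the cKO libraries and 66.5% in control mouse 3. All 6 stromal markers were at 70.5 TPM or more in every library. Their sum was 16023 and 19505 TPM in the controls and 10178 to 13349 TPM in the cKO libraries. Of the 6, Lum, Col1a1 and Col3a1 were below both controls in every cKO library, and Pdgfra, Pdgfrb and Dcn overlapped. Markers of other cell types were not at 0 in any library. The 10 epithelial markers summed to 2808 and 3110 TPM in the controls, to 2014 TPM in cKO mouse 1 and to 11742 and 12717 TPM in cKO mice 2 and 3. Most of each sum was Ovgp1, at 2273 and 2463 TPM in the controls and 1522, 10655 and 11258 TPM in cKO mice 1, 2 and 3. The cKO mean over the control mean was 3.30 for Ovgp1 and 0.985 (Cldn4) to 2.37 (Pax8) for the others. In cKO mice 2 and 3, 9 of the 10 were above both controls, all but Cldn4. The 5 granulosa cell markers, at 31.6 and 69.3 TPM in sum in the controls and 115, 196 and 204 TPM in cKO mice 1, 2 and 3, were all above both controls in every cKO library, and the 4 mesothelial markers, at 405 and 508 TPM against 154 to 245 TPM, were all below. The 6 immune markers summed to 896 and 899.9 TPM in the controls and to 857, 478 and 218 TPM in cKO mice 1, 2 and 3. Of these, 3 were below both controls in every cKO library (Ptprc, Tyrobp and Csf1r). Cd3e, at 9.76 and 13.7 TPM in the controls, was at 35.9, 17.2 and 2.57 TPM in cKO mice 1, 2 and 3. The part of other cell types in the results below was not tested, and in bulk samples fewer cells of a type cannot be told apart from less RNA per cell.

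No member passed an adjusted p of 0.05 in limma, a linear model of log2(TPM + 1) fitted over all 19292 genes with at least 1 TPM in at least 2 libraries. Of the 62 members 57 were tested. Among the members described here the lowest adjusted p was 0.192, for Bmp2, and over all genes 0.0104% were called higher and 0.0156% lower. At an unadjusted p under 0.05, 7 members were higher (12.3% of those tested, against 3.7% of all genes) and 10 lower (17.5%, against 9.87%). The 3 cKO libraries lay above both controls for 13 tested members (22.8%, against 11.9% of all genes) and below both for 18 (31.6%, against 21.9%). In 20 of these 31 the gap between the groups was smaller than the distance between the controls. The median log2 fold change was 0.07 over the tested members and -0.02 over all genes, with 30 members above 0 and 27 below. The sign of the members' median turned with the setting, to -0.06 without Rpph1 and Rn45s, where the median over all genes was -0.09.

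Members that separated the groups under 4 scalings of the libraries sat at several levels of the pathway. Of 56 tested in all 4, 8 lay above both controls in all cKO libraries (14.3%, against 8.77% of all genes): the ligands Gdf10 and Bmp3, the binding protein Ltbp2, the receptors Bmpr1b and Bmpr2, the pseudoreceptor Bambi, the antagonist Fst and the target Id2. Another 9 lay below (16.1%, against 10.8% of all genes), among them the ligands Bmp2, Bmp6, Gdf11, Gdf15 and Tgfb1, the binding protein Ltbp4, the receptor Tgfbr2 and the antagonist Nog. Counts of separated members moved with the scaling, from 13 higher and 18 lower to 16 and 13 with median-of-ratios scaling and 10 and 13 with quantile normalization. Of all genes 20.8% were higher and 19.5% lower without overlap with median-of-ratios scaling, and 16.8% and 15.6% with quantile normalization. With quantile normalization the 10 higher, of 57 tested members, were near the share of all genes. Over all genes the split at an unadjusted p under 0.05 moved from 713 higher and 1904 lower to 1195 and 1378 with quantile normalization and 1289 and 1711 with median-of-ratios scaling.

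**Figure D1:**
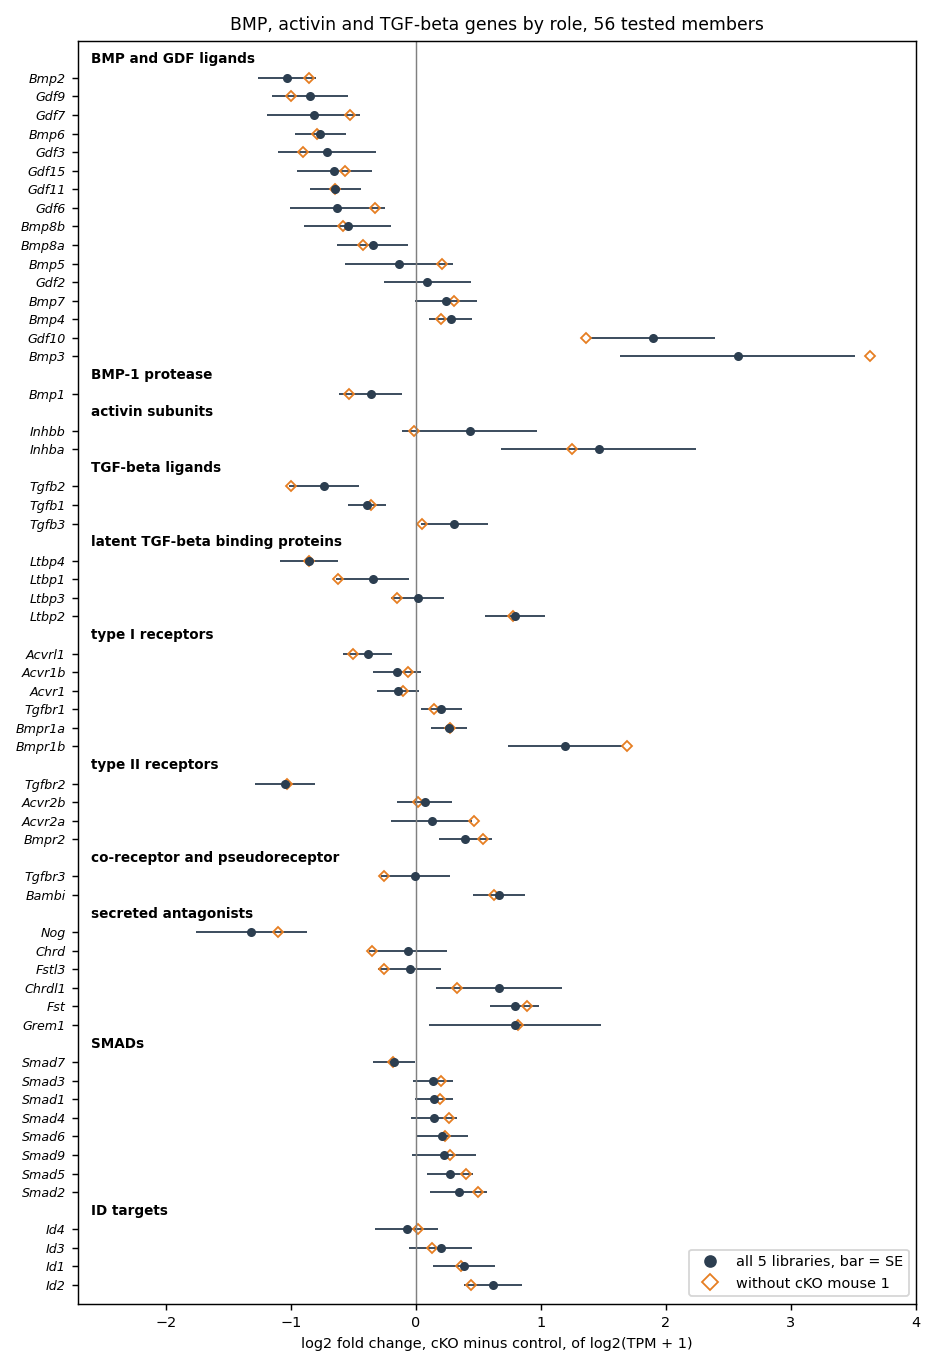
Log2 fold change of log2(TPM + 1), cKO minus control, for 56 of the tested members grouped by role (filled circles, bar = standard error, 5 libraries), with the value when cKO mouse 1 is left out (open diamonds, 55 members). Nog (-1.32) and Tgfbr2 (-1.05) have the lowest values shown and Bmp3 (2.58) and Gdf10 (1.90) the highest, and the diamond of Bmp3 lies at 3.64.

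Calls turned on cKO mouse 1, the only cKO library with Esr1 below both controls. Without cKO mouse 1, limma called Bmp3, Bmpr1b, Gdf10 and Fst higher (7.14% of 56 tested members, against 5.35% of all genes). It called 3 members lower, Tgfb2 and Bmp2 among them (5.36%, against 2.63%). In that fit the cKO group was mice 2 and 3, with Esr1 at 85.0 and 169.9 TPM. The log2 fold change of Esr1 was then 0.57, so these calls do not compare libraries with lowered Esr1. Leaving out any of the other 4 libraries called 0 members, with 3 to 7 higher and 4 to 8 lower at an unadjusted p under 0.05 in limma, where 1.6% to 2.83% of all genes were higher and 3.63% to 11% lower. Where 1 control was left, that control is assumed to vary like the cKO libraries. The share called higher was near the background. Library weights called 4 members higher and 3 lower, against 1.35% and 2.05% of all genes, and a replicate block 6 and 6, against 6.04% and 3.59%.

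Promoter sequence is shown for 4 members that separated the groups, 2 higher (Gdf10 and Id2) and 2 lower (Tgfbr2 and Ltbp4), as the stretch of DNA next to which their transcription starts. The 250 bases before a RefSeq start site are given on the gene's strand, 5′ to 3′, on GRCm38.p6, which is the build mm10 of the deposited values. Capitals mark GGCGCC, an element bound by SMAD1 and SMAD5 and the same on both strands. The Gdf10 stretch is chr14:33923337-33923586 (plus strand), that of Id2 chr12:25096093-25096342 (minus), that of Tgfbr2 chr9:116175364-116175613 (minus), and that of 1 of 3 Ltbp4 start sites chr7:27333664-27333913 (minus).
Gdf10: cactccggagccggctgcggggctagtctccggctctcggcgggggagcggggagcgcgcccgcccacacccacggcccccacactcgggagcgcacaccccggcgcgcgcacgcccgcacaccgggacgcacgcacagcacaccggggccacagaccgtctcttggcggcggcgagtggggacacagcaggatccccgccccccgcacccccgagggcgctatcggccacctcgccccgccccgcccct
Id2: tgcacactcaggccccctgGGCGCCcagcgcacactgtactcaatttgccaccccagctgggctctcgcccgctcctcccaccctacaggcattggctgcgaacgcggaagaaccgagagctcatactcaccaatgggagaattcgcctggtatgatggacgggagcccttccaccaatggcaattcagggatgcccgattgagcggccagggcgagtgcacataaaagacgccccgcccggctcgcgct
Tgfbr2: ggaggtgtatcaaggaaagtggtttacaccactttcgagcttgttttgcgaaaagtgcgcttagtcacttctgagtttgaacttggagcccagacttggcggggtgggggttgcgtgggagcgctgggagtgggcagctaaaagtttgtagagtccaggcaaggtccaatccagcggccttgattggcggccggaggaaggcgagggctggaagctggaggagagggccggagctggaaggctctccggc
Ltbp4: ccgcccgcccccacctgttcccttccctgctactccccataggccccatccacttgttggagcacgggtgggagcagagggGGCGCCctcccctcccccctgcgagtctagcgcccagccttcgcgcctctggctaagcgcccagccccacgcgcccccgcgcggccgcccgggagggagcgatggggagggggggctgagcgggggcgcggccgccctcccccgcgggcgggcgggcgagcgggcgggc
GGCGCC began 231 bases before the start in Id2 and 169 before it in the Ltbp4 window shown, and was not in the Gdf10 and Tgfbr2 windows. Of the 3 Ltbp4 windows, the one farthest upstream (chr7:27337613-27337862) did not hold it. RefSeq gave 53 such stretches for 42 members, of which 12 (22.6%), from 11 members, held GGCGCC, against 9.59% of 32851 stretches of all genes. The site in Ltbp4 lies in overlapping windows and is counted in each. The members' stretches were also richer in G and C, with a median of 64.0% against 52.4%. GTCTAGAC, the palindrome bound by SMAD3 and SMAD4, and the palindromic estrogen response element were in 0 of the 53, against 0.167% and 0.0639% of all. Each motif reads the same on both strands, and GGCGCC is the only one with a match, so no matches of different motifs overlap.

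BMP and GDF ligands divided into a pair of high cKO genes and a longer list of low ones. Of 20 listed ligands 16 were tested, 3 were higher without overlap (18.8%, against 11.9% of all genes) and 10 lower (62.5%, against 21.9%). With quantile normalization 4 were lower, and 15.6% of all genes. The share of all genes is not matched for level. Gdf3, Gdf6, Gdf7, Gdf9, Bmp8a and Bmp8b, among the 10, had control means of 1.46 to 4.32 TPM. Low genes were lower more often over the whole table. At an unadjusted p under 0.05 in limma 1904 of 19292 genes were lower, and 746 of 12608 with a mean of at least 5 TPM. The median log2 fold change of the ligands was -0.59. Gdf10 (chr14:33923587-33937983, plus strand), whose product is also called BMP-3b and is known to act against other BMPs, was at 54.9 and 66.2 TPM in control mice 2 and 3. It was at 480, 179 and 136 TPM in cKO mice 1, 2 and 3. Every cKO library was above both controls, with mouse 1 far above the other two. Group means were 60.6 ± 8.04 TPM (SD, n = 2) in controls against 265 ± 187 TPM (SD, n = 3), a log2 fold change of 1.90 (SE 0.49, adjusted p 0.214 in limma). Without cKO mouse 1 it was 1.36 (adjusted p 0.0181 in limma).

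Bmp3 (chr5:98854415-98884396, plus strand), the closest relative of Gdf10 and likewise a BMP antagonist, was at 4.10 and 2.07 TPM in control mice 2 and 3 and at 4.45, 43.0 and 54.0 TPM in cKO mice 1, 2 and 3. Mouse 1 lay only just above control mouse 2, and mice 2 and 3 lay more than an order of magnitude above either control. In limma the fold change was 2.58 on the log2 scale (SE 0.94, adjusted p 0.331). It was 3.64 without cKO mouse 1 (adjusted p 0.0132 in limma) and 1.97 without cKO mouse 3. The epithelial markers in sum had the same order of libraries in part, high in cKO mice 2 and 3 and low in mouse 1. Their part in the Bmp3 value was not tested. Gdf10 had another order, with its highest level in the library in which these markers were lowest in sum.

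Bmp2 (chr2:133552159-133562885, plus strand), a ligand of BMPR1A, was at 22.5 and 26.4 TPM in control mice 2 and 3 and at 8.74, 12.7 and 13.3 TPM in cKO mice 1, 2 and 3. All cKO values were well under the lower control. The log2 fold change stood at -1.03 in limma (SE 0.23, adjusted p 0.192), and -0.86 without cKO mouse 1 (adjusted p 0.0350 in limma). The mesothelial markers were also below both controls in every cKO library and lowest in mouse 1, and their part in the Bmp2 value was not tested. Bmp6 (chr13:38345107-38500302, plus strand), a ligand that binds ACVR1, was at 23.0 and 18.3 TPM against 12.2, 12.8 and 10.2 TPM, again with no overlap (log2 fold change -0.76, SE 0.20, adjusted p 0.222 in limma). Gdf11, a ligand of activin receptors, was nearly level within each group, at 8.89 and 9.69 TPM in the controls and 5.60, 5.47 and 5.69 TPM in the cKO libraries (log2 fold change -0.64, adjusted p 0.279 in limma). Gdf9, best known from oocytes, was at 5.20 and 3.44 TPM against 2.62, 1.90 and 1.37 TPM (log2 fold change -0.85, adjusted p 0.327 in limma), and its groups met under some scalings. Bmp6 shares 224 exonic bases, 5.74% of its exons, with Txndc5 on the other strand, and whether counting used strand is not known.

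Of the remaining ligands, Gdf15 separated the groups in all 4 scalings. Bmp4, a ligand of stromal cells in many organs, was the ligand with the second highest mean level, at 24.6 and 25.95 TPM in the controls and 34.5, 28.6 and 29.9 TPM in cKO mice 1, 2 and 3 (log2 fold change 0.28, adjusted p 0.483 in limma). It did not overlap here but did under another scaling. Gdf15, a stress-responsive member, was at 8.52 and 16.6 TPM against 6.31, 8.17 and 7.30 TPM, with control mouse 2 close to the cKO libraries and control mouse 3 well above. Bmp7 lay between 7.46 and 12.7 TPM and Bmp5 between 2.31 and 7.18 TPM, both with overlap. Bmp5, whose sign turned with the scaling, shares 46.7% of its exonic bases with an antisense gene. Gdf3, Gdf6, Gdf7, Bmp8a and Bmp8b lay lower without overlap here but not in all 4 scalings, with control means of 1.46 to 2.88 TPM and cKO means of 0.73 to 1.39 TPM; the sign of Bmp8a turned with the scaling. Bmp8a and Bmp8b are related genes, and whether reads were divided between them was not tested. Gdf2, which encodes BMP-9, stayed between 0.46 and 1.63 TPM. Bmp10, Bmp15 and Gdf5 were below the filter. Bmp10 was the only member whose steps could be solved to whole reads, 21 and 12 in the controls and 3, 6 and 2 in cKO mice 1, 2 and 3. Gdf1 was listed at 0 in every library; all of its exonic bases lie within Cers1.

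Bmp1, grouped apart because it encodes a metalloprotease that processes procollagen and not a ligand, had 122 and 81.8 TPM in the controls and 99.6, 70.1 and 66.8 TPM in cKO mice 1, 2 and 3 (log2 fold change -0.36, adjusted p 0.530 in limma). The groups overlapped through mouse 1.

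**Figure D2:**
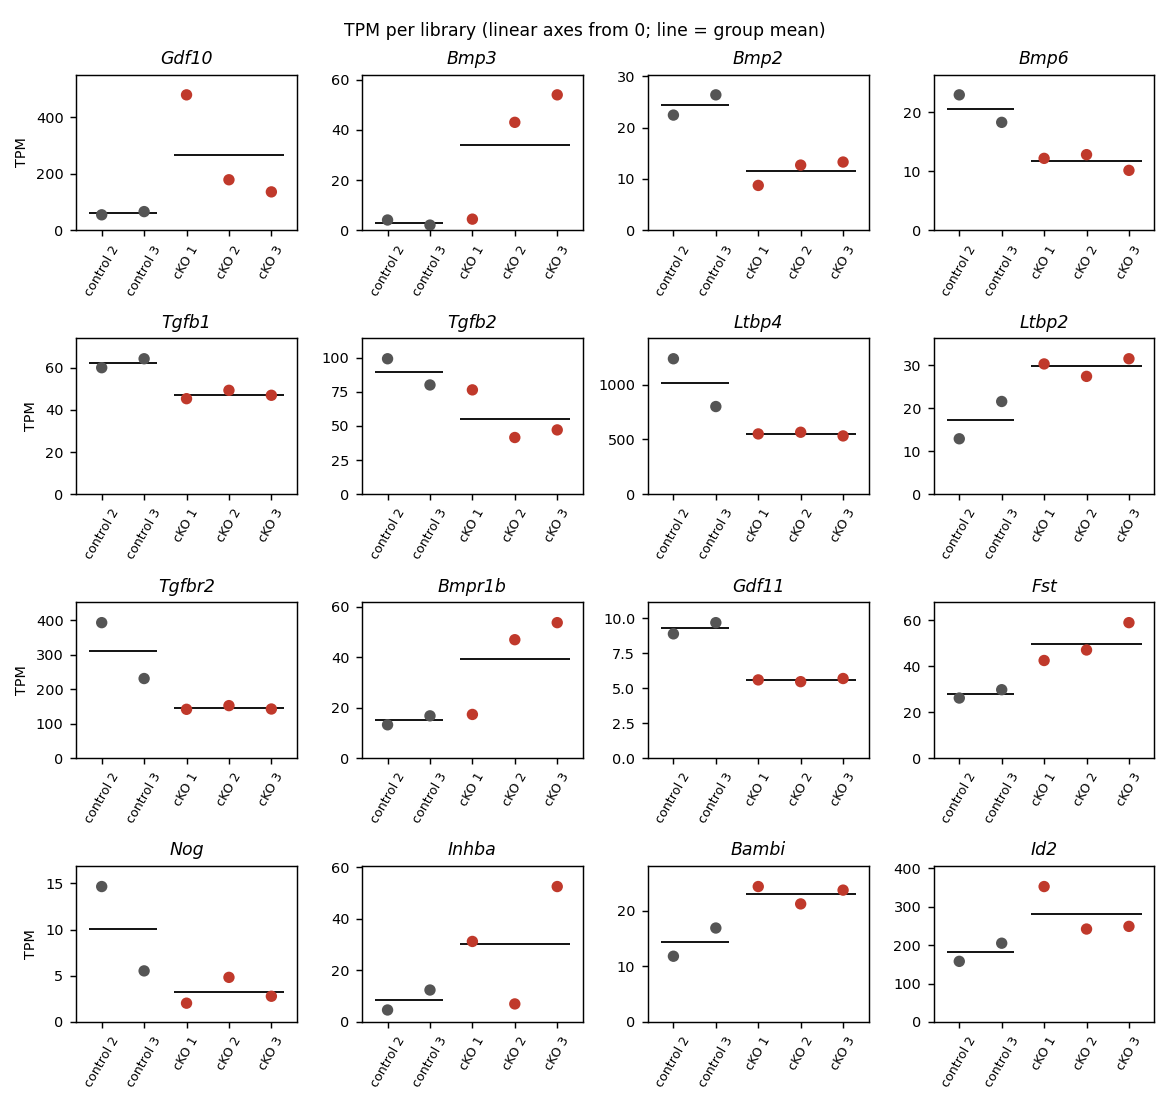
TPM in each library for 16 members (grey points, control mice 2 and 3; red points, cKO mice 1, 2 and 3; line, group mean; each axis starts at 0). Gdf10 is highest in cKO mouse 1 at 480 TPM, whereas Bmp3 and Bmpr1b are high only in cKO mice 2 and 3, and Inhba is high in cKO mice 1 and 3.

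Activin subunits varied widely within the groups, which overlapped. Inhba, which encodes the subunit of activin A, was at 4.66 and 12.4 TPM in control mice 2 and 3 and at 31.3, 7.02 and 52.6 TPM in cKO mice 1, 2 and 3. Mouse 2 lay between the controls, and the log2 fold change of 1.46 had an SE of 0.78 (adjusted p 0.438 in limma). It was 0.84 without control mouse 2 and 2.25 without cKO mouse 2. Inhbb, of activin B, was at 27.97 and 12.2 TPM and at 47.8, 13.4 and 25.1 TPM. Its log2 fold change of 0.43 (adjusted p 0.715 in limma) was -0.01 without cKO mouse 1 and -0.14 without control mouse 3.

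The 3 TGF-beta ligands, which are secreted in latent form, had similar levels and different orders. Tgfb1 had 60.02 and 64.3 TPM in the controls and 45.3, 49.3 and 46.9 TPM in cKO mice 1, 2 and 3. The groups were tight and apart, and the difference was small, at a log2 fold change of -0.39 (SE 0.15, adjusted p 0.345 in limma). Tgfb2 (chr1:186622792-186705989, minus strand) was at 99.3 and 80.1 TPM against 76.5, 41.5 and 47.1 TPM, with mouse 1 close to control mouse 3 (log2 fold change -0.74, SE 0.28, adjusted p 0.342 in limma). Without cKO mouse 1 its log2 fold change was -0.99 (adjusted p 0.0248 in limma). Tgfb3 was at 72.6 and 81.7 TPM against 137, 77.5 and 82.2 TPM, high in mouse 1 only (log2 fold change 0.31, adjusted p 0.598 in limma, and 0.05 without that library).

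Latent TGF-beta binding proteins held the most abundant member. Ltbp4 (chr7:27305136-27337692, minus strand), which also takes part in elastic fibre assembly, was at 1238 and 801 TPM in control mice 2 and 3 and at 551, 566 and 533 TPM in cKO mice 1, 2 and 3. The cKO libraries were nearly level with one another and below both controls, which themselves differed. In limma the fold change was -0.86 on the log2 scale (SE 0.23, adjusted p 0.227), and -0.54 without control mouse 2. Ltbp2, a microfibril protein that does not bind latent TGF-beta, lay on the other side, at 12.9 and 21.6 TPM in the controls and 30.3, 27.4 and 31.6 TPM in the cKO libraries (log2 fold change 0.79, SE 0.24, adjusted p 0.263 in limma), and 0.44 without control mouse 2. An antisense gene covers 9.34% of its exonic bases. Ltbp1 and Ltbp3, with control means of 159 and 128 TPM and cKO means of 130 and 131 TPM, overlapped between the groups.

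Among type I receptors, the kinases that phosphorylate SMADs, Bmpr1a was the most abundant. It had 105 and 103 TPM in the controls and 124, 129 and 122 TPM in cKO mice 1, 2 and 3, a log2 fold change of 0.27 (SE 0.15, adjusted p 0.445 in limma). Bmpr1b (chr3:141837136-142169425, minus strand), a second BMP type I receptor, was at 13.2 and 16.8 TPM in the controls, at 17.3 TPM in cKO mouse 1 and at 47.0 and 53.7 TPM in mice 2 and 3. As with Bmp3, mouse 1 was level with the controls, and the part of the epithelial markers, high in mice 2 and 3, was not tested. The log2 fold change stood at 1.19 in limma (SE 0.46, adjusted p 0.344), and 1.69 without cKO mouse 1 (adjusted p 0.0140 in limma). Within a library, Bmpr1b stood at 0.13 to 0.16 of the Bmpr1a level in the controls and cKO mouse 1 and at 0.36 and 0.44 in cKO mice 2 and 3. Acvrl1, the ALK1 receptor of endothelial cells, had a mean of 36.0 TPM in controls and 27.4 TPM in cKO libraries (adjusted p 0.425 in limma). The 5 endothelial markers summed to 167 and 200.1 TPM in the controls and to 137 to 209 TPM in the cKO libraries. Tgfbr1, the TGF-beta type I receptor, had means of 50.7 TPM in controls and 58.9 TPM in cKO libraries, without overlap here but not in all 4 scalings. Acvr1 and Acvr1b had cKO means at 0.90 of the control mean, both with overlap. Acvr1c was under 1 TPM in every library and was not tested.

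Of the type II receptors, which bind ligand and activate the type I kinase, Tgfbr2 was the most abundant and the only one with all cKO libraries below the controls. Tgfbr2 (chr9:116084293-116175360, minus strand) was at 393 and 231 TPM in control mice 2 and 3 and at 142, 152 and 142 TPM in cKO mice 1, 2 and 3. The cKO values lay within a narrow band, and the controls differed by more than control mouse 3 did from that band. In limma the fold change was -1.05 on the log2 scale (SE 0.24, adjusted p 0.193), and -0.66 without control mouse 2. Tgfbr2 was 7.89 and 4.47 times as high as Tgfbr1, its partner, in the controls and 2.22, 2.52 and 2.72 times in cKO mice 1, 2 and 3, with no overlap. Bmpr2, the BMP type II receptor, was at 101 and 92.4 TPM against 104, 159 and 125 TPM (log2 fold change 0.40, adjusted p 0.434 in limma). Acvr2a was at 37.3 and 35.0 TPM in the controls, below them in cKO mouse 1 at 24.4 TPM and above them in mice 2 and 3 at 48.6 and 52.0 TPM. Acvr2b lay between 4.70 and 5.77 TPM in all 5 libraries.

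Bambi, a receptor without a kinase domain that dampens signalling, had 11.8 and 16.9 TPM in the controls and 24.4, 21.3 and 23.7 TPM in cKO mice 1, 2 and 3. Every cKO library lay above both controls, at a log2 fold change of 0.67 (SE 0.21, adjusted p 0.276 in limma). Tgfbr3, the co-receptor betaglycan, was at 183 and 139 TPM against 225, 136 and 131 TPM, with a log2 fold change of -0.01 (adjusted p 0.993 in limma), whose sign turned with median-of-ratios scaling, and no separation.

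**Figure D3:**
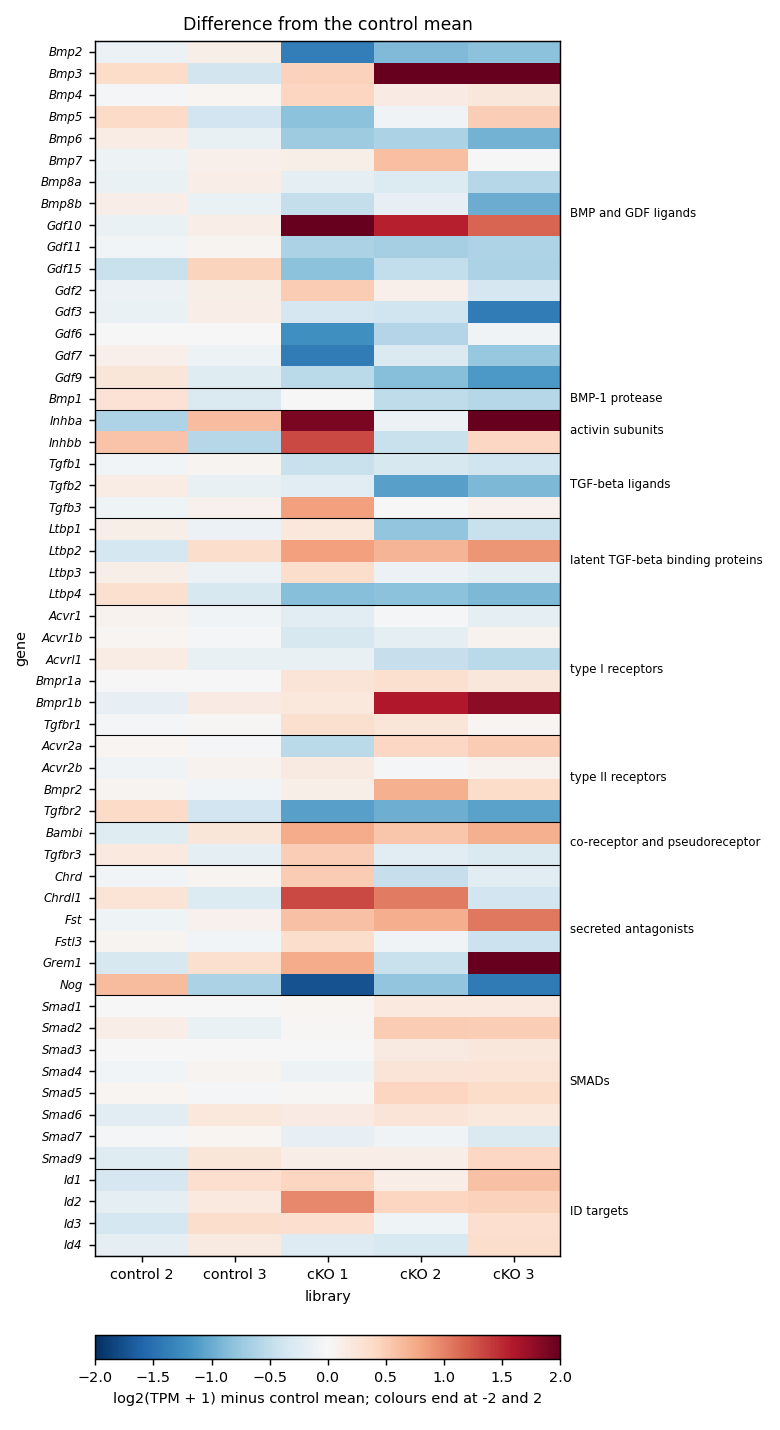
Difference of log2(TPM + 1) from the control mean in each library for 56 of the tested members, by role (red higher, blue lower, colours end at -2 and 2). Tgfbr2, Ltbp4 and Bmp2 are blue in all 3 cKO libraries, Gdf10 is red in all 3, and Bmp3 and Bmpr1b are dark red in cKO mice 2 and 3 only.

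Secreted antagonists stood on both sides of the controls. Nog, the gene of noggin, had 14.7 and 5.53 TPM in the controls and 2.04, 4.83 and 2.79 TPM in the cKO libraries. The controls differed by much more than control mouse 3 did from cKO mouse 2, and the log2 fold change of -1.32 (SE 0.44, adjusted p 0.305 in limma) was -0.69 without control mouse 2.

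Fst (chr13:114452290-114458951, minus strand), the gene of follistatin, which binds activins, had 26.1 and 29.8 TPM in the controls, and stood at 42.5, 47.0 and 58.9 TPM in cKO mice 1, 2 and 3. The log2 fold change stood at 0.79 in limma (SE 0.20, adjusted p 0.200), and 0.89 without cKO mouse 1 (adjusted p 0.0325 in limma). All cKO libraries lay above both controls, as did the 5 granulosa markers, whose part in the Fst value was not tested. Chrdl1, a chordin relative, lay above both controls in cKO mice 1 and 2, at 18.7 and 15.1 TPM, and below both in mouse 3, at 5.03 TPM. Grem1 was at 0.83 to 3.18 TPM in 4 libraries and at 9.65 TPM in cKO mouse 3. Chrd and Fstl3 had control means of 9.78 and 24.9 TPM and cKO means of 9.78 and 24.7 TPM, with wider spread in the cKO libraries; Prss57 on the other strand covers 47.3% of the Fstl3 exonic bases.

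SMAD genes differed little. Log2 fold changes of the 8 listed SMADs lay between -0.18 and 0.34, and 7 were above 0 in all 4 scalings. Here 2 of 8 were higher without overlap (11.9% of all genes) and 1 lower (21.9% of all genes). With median-of-ratios scaling 5 were higher and 0 lower, and 20.8% and 19.5% of all genes. Smad5, the most abundant, had 43.2 and 40.6 TPM in the controls and 42.4, 56.98 and 54.2 TPM in cKO mice 1, 2 and 3 (log2 fold change 0.27, SE 0.19, adjusted p 0.520 in limma). Mouse 1 lay between the controls. Smad2 had the same order, at 15.7 and 12.8 TPM against 14.4, 20.5 and 20.4 TPM. Smad1 and Smad3 had control means of 43.2 TPM each and cKO means of 47.9 and 47.7 TPM, and Smad4, the shared partner, 35.8 and 39.9 TPM. The inhibitory Smad6 and Smad7, which are induced by the pathway and restrain it, had control means of 10.9 and 25.5 TPM and cKO means of 12.7 and 22.5 TPM. Smad9 lay between 3.71 and 6.44 TPM.

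Of the 4 ID genes, whose products block basic helix-loop-helix transcription factors, Id2 alone separated the groups. It had 158 and 205 TPM in the controls and 352, 242 and 249 TPM in cKO mice 1, 2 and 3, highest in mouse 1. In limma the fold change was 0.62 on the log2 scale (SE 0.23, adjusted p 0.338), and 0.45 without cKO mouse 1. Id1 was at 40.1 and 64.8 TPM against 69.0, 56.01 and 77.3 TPM, and Id3 at 112 and 181 TPM against 180.2, 134 and 181 TPM. For both, control mouse 2 was the lowest library. Control mouse 3 stood among the cKO libraries for Id1 and level with the highest of them for Id3. Id4 overlapped, with means of 36.5 and 35.2 TPM.

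Other genes of the pathway, which the symbol pattern did not take in, were read from a list of 56, of which 55 are in the table and 53 were tested. None passed an adjusted p of 0.05 in limma. At an unadjusted p under 0.05, 8 were higher (15.1%, against 3.7% of all genes) and 8 lower (15.1%, against 9.87%), and the median log2 fold change was -0.12. Without cKO mouse 1, 6 were called higher (Smoc2, Amh, Amhr2, Tll1, Inha and Ccn2; 11.3%, against 5.35% of all genes) and 3 lower, Nrros and Bmper among them (5.66%, against 2.63%). Of the 8 with the smallest p over all 5 libraries 7 are described. Smoc2, a matricellular protein related to BMP modulators, had 44.4 and 42.4 TPM in the controls and 102, 101 and 143 TPM in cKO mice 1, 2 and 3 (log2 fold change 1.37, adjusted p 0.117 in limma). Tgfbi, a matrix protein induced by TGF-beta, was at 371 and 575 TPM against 1080, 719 and 909 TPM (log2 fold change 0.95, adjusted p 0.245 in limma). Nrros, which tethers latent TGF-beta on macrophages and microglia, was at 19.7 and 21.8 TPM against 10.46, 10.8 and 6.06 TPM (log2 fold change -1.14, adjusted p 0.198 in limma). Tll1, a protease related to BMP-1 that cleaves chordin, was at 2.56 and 2.12 TPM against 5.60, 7.12 and 6.12 TPM (log2 fold change 1.12, adjusted p 0.187 in limma).

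Inhibin and anti-Müllerian hormone genes were also among them. Inha, the inhibin subunit that pairs with the activin subunits, had 9.39 and 38.7 TPM in the controls and 65.7, 111 and 136 TPM in cKO mice 1, 2 and 3 (log2 fold change 2.31, adjusted p 0.199 in limma). It was 1.35 without control mouse 2 and 3.28 without control mouse 3. Amh was at 1.76 and 4.73 TPM against 13.7, 23.8 and 14.6 TPM (log2 fold change 2.17, adjusted p 0.133 in limma), and Amhr2, its type II receptor, at 8.89 and 7.59 TPM against 17.7, 18.2 and 17.1 TPM (log2 fold change 1.02, adjusted p 0.141 in limma). Inha and Amh are both on the granulosa marker list, of which all 5 genes lay above both controls in every cKO library.

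**Figure D4:**
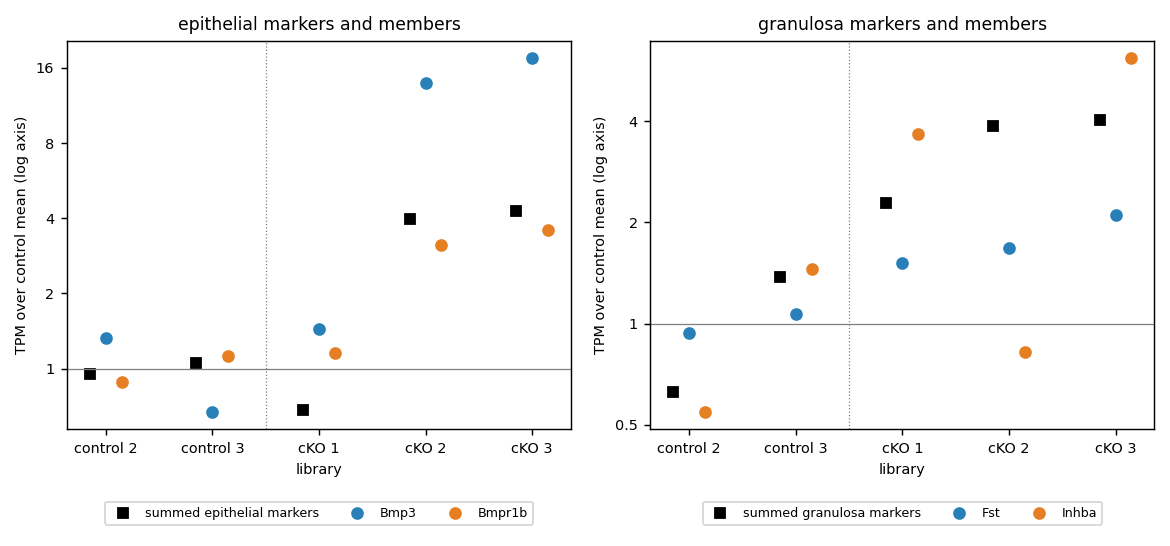
TPM over the control mean in each library, on a log axis, for summed epithelial markers with Bmp3 and Bmpr1b (left) and summed granulosa markers with Fst and Inhba (right); the dotted line divides controls from cKO. The epithelial sum, most of which is Ovgp1, is high in cKO mice 2 and 3, as are Bmp3 and Bmpr1b. Inhba in cKO mouse 2, at 7.02 TPM, is low where the granulosa markers, at 196 TPM in sum, are high.

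The members did not share 1 order of libraries. Across the 57 tested members, cKO mouse 1 was the highest of the 5 libraries for 15, Gdf10, Tgfb3, Id2 and Inhbb among them, and the lowest for 12, such as Bmp2 and Nog. cKO mouse 3 was the highest for 15 and the lowest for 15, and cKO mouse 2 the highest for 6 and the lowest for 6. cKO mice 2 and 3 together lay above both controls for 17 members (29.8%, against 34.5% of all genes) and below both for 23 (40.4%, against 28%). In 4 of the 17, Smad2, Smad4, Smad5 and Acvr2a, cKO mouse 1 did not lie above the controls. The controls differed from each other by over 1.5 times for 15 members, Nog and Tgfbr2 included. By level, 10 members had a mean of at least 100 TPM, 31 lay between 10 and 100 TPM, 15 between 1 and 10 TPM and 6 below 1 TPM.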

How the data were processed

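Expression was measured by RNA sequencing in 5 libraries, 2 of control and 3 of Pdgfra-Cre;Esr1(fl/fl);R26Y mice. Titles gave the group and number of each mouse. Total RNA of the sorted cells went into a low-input SMARTer v4 mRNA library, per the labels' protocols. The authors deposited TPM per gene, summing to 1000000 in each library; mm10 is given as the build in the submitters' processing notes, the name of the deposited table says STAR, and the version, gene counter, annotation and use of strand are not given in the sources used here. The deposited table is the only source of values.

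The log2(TPM + 1) values were fitted across all genes with limma 3.58.1 in R 4.3.3 (lmFit, eBayes with a trend), with genotype as the only term, 2-sided, with Benjamini-Hochberg adjustment at 0.05. Genes needed 1 TPM in 2 libraries. The scale understates changes of low genes. TPM hides total depth, so relative depth was estimated from the steps of low values with Python 3.11.15, numpy 2.4.6 and pandas 2.3.3. Both the fit and the depth estimate were run on simulated data to check the code. The simulations do not show their accuracy on these libraries. Coordinates and shared exon bases are from GENCODE M21, promoters from RefSeq.

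Values in every library are given for members with an adjusted or unadjusted p under 0.05 (at most 20) and for the most abundant member of each role. Those of Bmp4, Bmpr2, Acvr2a, Gdf15, Inhba, Smad2, Id1 and Id3 were added after they were seen. Other pathway genes are named by the 8 smallest p. A member and another pathway gene that these rules name are not reported here, but are included in the counts. Members and lists were chosen with earlier results of these data known. Alternatives changed the scaling, the pseudocount, the filter, the variance model or the weight of each library, added a replicate block, or left out 1 library. With 2 and 3 mice a group, the number of mice limits the precision.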

Additional observations from a re-analysis of the deposited data

How the results depend on the processing

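The count of members past an adjusted p of 0.05 in limma, 0 higher and 0 lower, was 0 with other pseudocounts, filters, scalings and variance models, where 14 to 18 members had an unadjusted p under 0.05. Counts over all genes moved too at that unadjusted p in limma. They ran from 555 to 1289 higher and from 746 to 2482 lower, with 12608 to 23272 genes tested. Library weights gave 4 higher and 3 lower, against 1.35% and 2.05% of all genes. Leaving out cKO mouse 1 gave 4 higher and 3 lower, against 5.35% and 2.63% of all genes. Leaving out cKO mouse 2 or cKO mouse 3 gave 0. The mouse number as a replicate block gave 6 higher and 6 lower, against 6.04% and 3.59% of all genes. The block rests on mice 2 and 3 alone, since mouse 1 has no partner. The same-numbered libraries' deviations from their group means had correlations of -0.0598 (mouse 2) and -0.0719 (mouse 3). With 2 controls the deviations of the controls mirror each other, so these values cannot show whether same-numbered mice were paired. The titles give only a number. The same 7 members, Bmp2, Bmp3, Bmpr1b, Fst, Gdf10 and Tgfb2 included, were among those called in each of these 3 settings. The 3 settings are not independent. The block gave the same log2 fold changes as leaving out cKO mouse 1, such as 3.64 for Bmp3 and 1.36 for Gdf10. Library weights gave 3.21 for Bmp3 and 1.62 for Gdf10, between these and the values with all libraries weighted alike. The block added Tgfbr2, Ltbp4, Bmp6, Bmpr2 and Ltbp2.

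Among single named genes, Tgfbr3 was at 0.0419 with median-of-ratios scaling and ranged from -0.26 to 0.19 over the fits without 1 library. Inhbb was at -0.0380 with library weights and -0.0137 with the replicate block, with a range of -0.14 to 0.998. Esr1 was at 0.15 with library weights and 0.57 with the block (range -0.68 to 0.57), and Pdgfra at -0.0744 with the block (range -0.0744 to 0.35). The cause was not tested. Over the named genes, 360 alternative values kept direction and side of the threshold, 25 came past it and 14 reversed. The median over the members, 0.07, was -0.06 without Rpph1 and Rn45s, -0.0054 with no filter and -0.02 with library weights. Over all genes it was -0.09, -0.07 and 0.03 in these settings. Below the filter, Bmp10 rests on few reads, and no read count was obtained for Bmp15, Gdf5 and Acvr1c. With no filter 11 of 61 members, not 10 of 57, were lower at an unadjusted p under 0.05 in limma. Over all genes it was 2482 of 23272, not 1904 of 19292.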
